A study of Penicillium oxalicum with 6 samples.

Results

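The 55 genes are transcripts that were abundant in mycelium of the PoxKu70 strain of Penicillium oxalicum and much lower in a POX_a00954 mutant. They were chosen on their levels in FPKM (sequenced fragments scaled to the length of the transcript and to the mapped total of the library). The mean over the PoxKu70 libraries had to be at least 100 FPKM, and every mutant library had to lie under 10% of that mean. Both conditions were met by 76 of the 1651 genes that averaged at least 100 FPKM in PoxKu70 (4.60%), out of 9822 genes listed. Of these 76, 10 lay in 5 ranges of locus tags that were left out (POX_a00740 to POX_a00770, POX_c04222 to POX_c04263, POX_c04500 to POX_c04530, POX_c04715 to POX_c04755 and POX_f08105 to POX_f08140). A further 11 were among the 15 outermost expressed locus tags at an end of an ID letter. Because these levels chose the genes, the difference between the strains is a description for them and carries no test.

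The comparison was between 2 strains with 3 libraries each, a mutant of POX_a00954, a transcription factor gene named in the series title, and PoxKu70, which the labels call wild type and which is called the parent here. Its name is that of Ku70, a DNA end-joining protein that is often removed in fungal recipient strains to favour targeted gene replacement. The labels do not say which part of POX_a00954 was altered, whether the mutant is a single clone, or whether replicates were separate cultures. P-values therefore measure only the spread between these libraries, which may be technical. Both strains were spread on plates for 4 days at 28 °C, their spores were cultured for 24 h with glucose, and the mycelium was then moved for 24 h to medium in which raw starch was the sole carbon source. In such bulk samples fewer cells of a kind and less RNA per cell cannot be told apart.

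Penicillium oxalicum secretes enzymes that degrade plant polysaccharides. Raw starch is taken apart outside the cell by secreted glucoamylases and alpha-amylases, and the glucose and maltose set free are carried into the cell by sugar transporters. In filamentous fungi the genes for such enzymes are generally switched on by pathway-specific transcription factors when the polymer is the carbon source and held down when glucose is plentiful, and their transcripts can be among the most abundant of the mycelium. The files and the reference table give locus tags without product names, so no function is assigned to any of the 55 genes, no marker could be used to check the label mycelium, and the genes are ordered by how much of their level remained.

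The libraries were alike within a strain. Pearson's r of log2(FPKM + 1) across the tested genes, which are not independent replicates, was 0.965 to 0.980 within strains and 0.750 to 0.808 between them. The FPKM sum of a library was between 1338218 and 1409899 in the mutant and between 1025654 and 1076733 in the parent. Read numbers are not known from FPKM; steps between low values gave depths, relative to mutant replicate 1, of 1.40 and 1.15 for mutant replicates 2 and 3 and of 1.56 to 1.90 for the parent libraries. Values under about 1 FPKM therefore rest on few reads, and on fewer in the mutant. The mutated gene itself was not absent: POX_a00954 had 283, 275 and 441 FPKM in mutant libraries and 716, 679 and 842 FPKM in those of the parent (limma, log2 change -1.19, SE 0.20, adjusted p = 0.0014). The second transcription factor of the series title, POX_c03583, had 104, 85.6 and 94.8 FPKM in the mutant, against 180, 155 and 224 FPKM in the parent (limma, log2 change -0.96, SE 0.16, adjusted p = 0.0014).

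Together the 55 genes were a trace of the mutant's transcriptome and a visible part of the parent's. Their FPKM added up to 1073, 822.5 and 933 in the mutant libraries and to 54566.5, 47772.6 and 60833.5 in the parent libraries. That was 0.0686% ± 0.0086 of all FPKM in the mutant and 5.15% ± 0.65 in the parent (SD, n = 3 each). The summed level in the mutant was 1.73% of that in the parent, 57.7-fold lower. Among the 100 most abundant genes of the parent, 11 belonged to the 55, and none of them was among the 100 most abundant of the mutant. The highest of them in the mutant were POX_g09001, with rank 752, and POX_b03096, with rank 1385. The median rank was 6900 in the mutant and 459 in the parent.

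The genes differed widely in how much of their level remained. The mutant mean was under 0.1% of the parent mean for 6 genes, 0.1 to 1% for 12, 1 to 5% for 24 and 5 to 10% for 13. The median was 2.27%, where the median of all 1651 genes with a parent mean of at least 100 FPKM was 99.2%. On the log2(FPKM + 1) scale the median change was -5.14 for the 55 genes, -0.013 for those 1651 and -0.0089 for all 8448 genes tested. A median near 0 over all genes balances falls and rises and does not show that single genes kept their level.

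**Figure D1:**
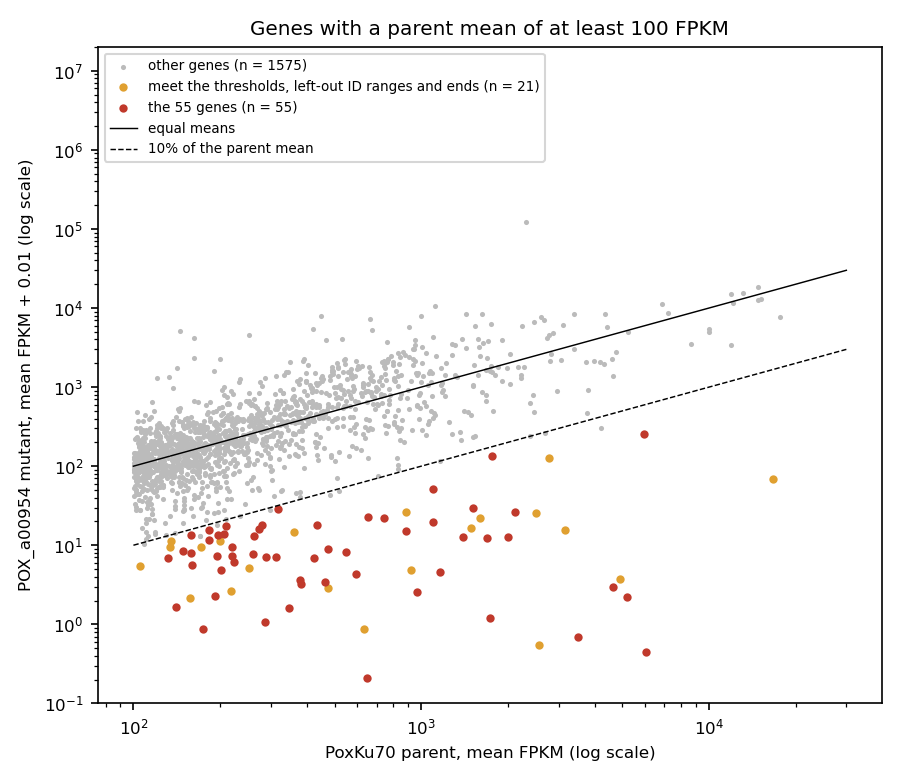
Mean FPKM in the POX_a00954 mutant (vertical, log scale, with 0.01 added) against mean FPKM in the PoxKu70 parent (horizontal, log scale) for the 1651 genes with a parent mean of at least 100 FPKM; each point is a gene and each mean is over 3 libraries. The 55 genes and the 21 left out by locus tag all lie below the dashed line at 10% of the parent mean. Some other genes, such as POX_a00613 at 7.22%, also lie below it by their mean but had a mutant library above 10%. The other genes lie on both sides of the line of equal means.

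The 6 genes with the smallest remainder were, with 1 exception, among the most abundant transcripts of the parent. POX_d05671, on chromosome IV, had 0.50, 0.48 and 0.32 FPKM in the mutant, against 5856, 5270 and 6989 FPKM in the parent. It was the 15th most abundant gene of the parent, and the mutant kept 0.0072% of its level. POX_d04867, on the same chromosome, had 0.63, 0.62 and 0.81 FPKM in mutant libraries and 3284, 3497 and 3701 FPKM in those of the parent, where its spread was small (SD 208). All mutant libraries of both genes were under 1 FPKM, a level at which the mean over libraries rests on few reads.

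POX_b02747, on chromosome II, was the exception, with rank 267 in the parent. Its values were 0.23, 0.16 and 0.20 FPKM in the mutant, the lowest of the set, against 679, 535 and 737 FPKM in the parent. POX_b02315 had 2.25, 1.69 and 2.71 FPKM in the mutant, against 4975, 4579 and 5967 FPKM in the parent. POX_c04047, on chromosome III, had 2.28, 2.35 and 4.17 FPKM in mutant libraries and 4997, 3923 and 5033 FPKM in those of the parent. These 2 genes ranked 18th and 21st in the parent and kept 0.043% and 0.063% of their levels. POX_a01871, on chromosome I, varied most among the 6 in the mutant, at 1.90, 0.57 and 1.07 FPKM, against 2006, 1422 and 1768 FPKM in the parent. For each of the 6, the lowest parent library was at least 748 times the highest mutant library.

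**Figure D2:**
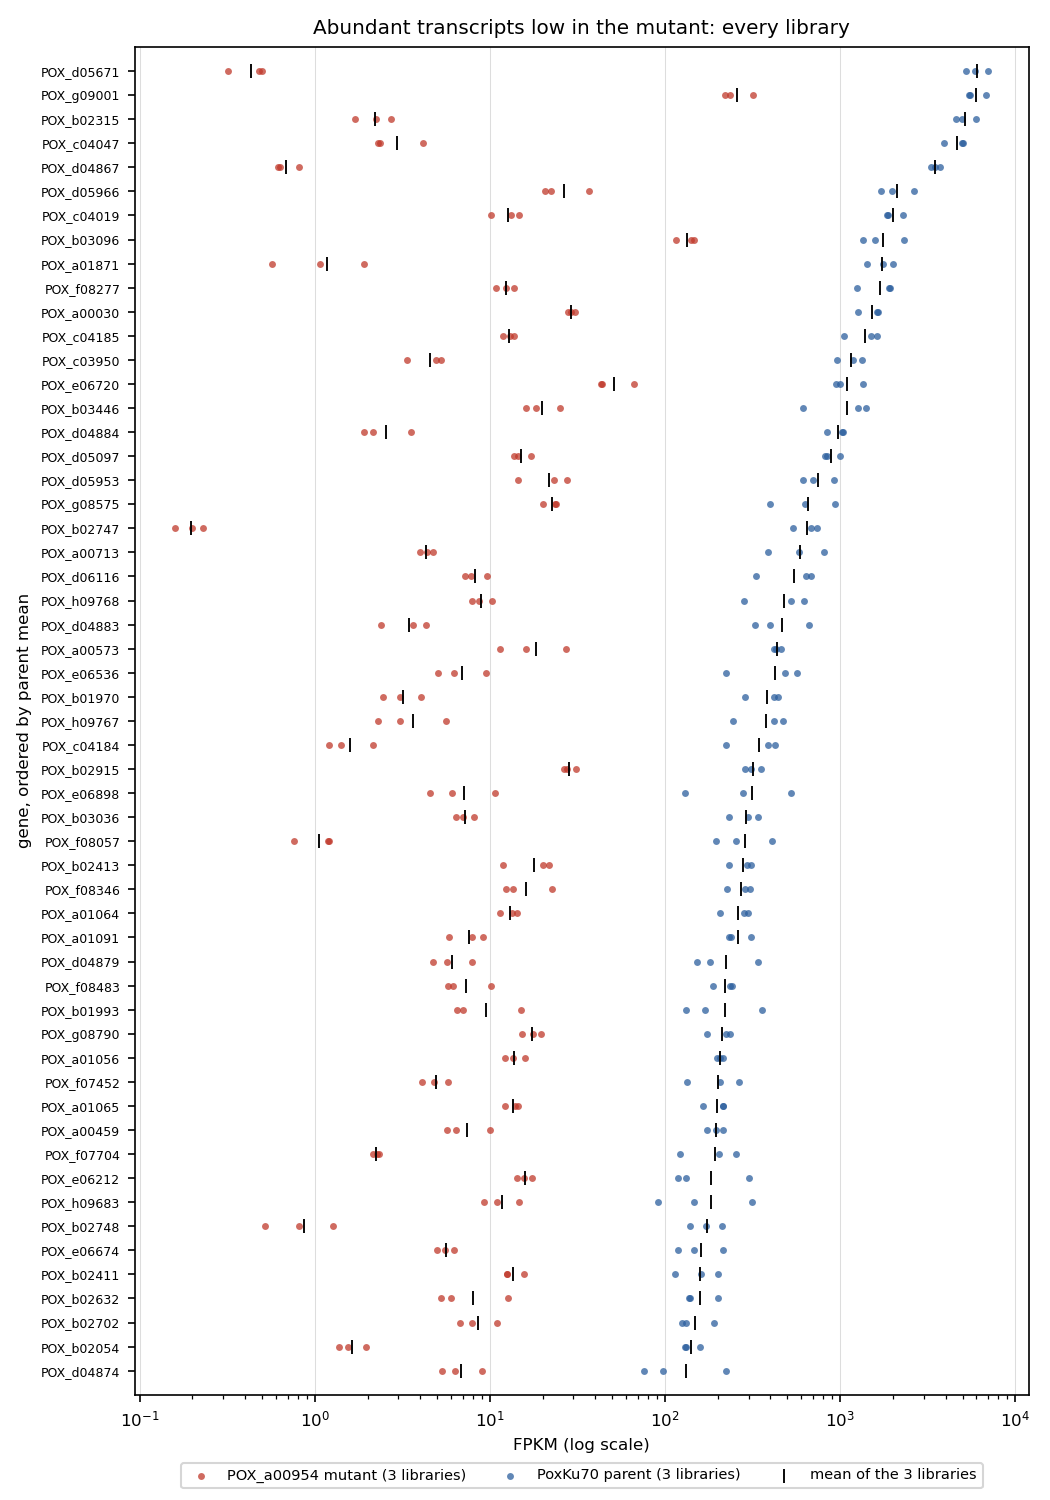
FPKM (log scale) of each of the 55 genes in every library, with POX_a00954 mutant libraries in red, PoxKu70 parent libraries in blue and a black tick at the mean of 3 libraries; genes run from the highest parent mean at the top to the lowest. Every mutant library lies below every parent library in all 55 genes, as it does in 614 of the 1651 genes with a parent mean of at least 100 FPKM (37.2%), and the mutant levels do not follow the order of the parent levels.

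The next 12 genes kept 0.26 to 0.96% of their parent means and had mutant means between 0.87 and 12.8 FPKM. POX_c04019, the most abundant of them, had 13.2, 10.1 and 14.7 FPKM in the mutant, against 2278, 1876 and 1865 FPKM in the parent. POX_f08277, on chromosome VI, had 12.3, 10.9 and 13.7 FPKM in mutant libraries and 1909, 1246 and 1934 FPKM in those of the parent. POX_c04185 had 13.7, 11.8 and 13.1 FPKM in the mutant, against 1492, 1056 and 1632 FPKM in the parent. Their mutant libraries lay close together, and in POX_f08277 and POX_c04185 the lowest parent library was replicate 2. The other members with such remainders were POX_d04884, POX_f08057, POX_c03950, POX_c04184, POX_b02748, POX_a00713, POX_d04883, POX_b01970 and POX_h09767. POX_c03950, the most abundant of these, averaged 4.53 ± 1.00 FPKM in mutant libraries and 1160 ± 184 FPKM in those of the parent (SD, n = 3 each).

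The 24 genes that kept 1 to 5% covered the whole range of parent levels, with parent means from 140 to 5932 FPKM. POX_g09001, on chromosome VII, stood out for its level in the mutant, with 319, 221 and 236 FPKM there and 5535, 6833 and 5429 FPKM in the parent. It was nearly as abundant in the parent as POX_d05671 but kept 4.36% of its level, and it was the most abundant of the 55 in the mutant. POX_d05966 had 36.9, 22.3 and 20.6 FPKM in the mutant, against 1967, 1712 and 2657 FPKM in the parent. POX_a00030 had 30.6, 29.1 and 27.9 FPKM in mutant libraries and 1623, 1258 and 1655 FPKM in those of the parent. In both genes the parent libraries lay further apart, in FPKM, than the mutant libraries. Relative to the mean this held only for POX_a00030, with an SD over mean of 0.0461 in the mutant and 0.146 in the parent. For POX_d05966 it was 0.336 in the mutant and 0.231 in the parent. The other highly abundant genes of this range were POX_e06720, at 51.0 ± 13.5 FPKM in the mutant, against 1100 ± 224 FPKM in the parent, and POX_b03446, at 19.8 ± 4.67 FPKM in mutant libraries and 1098 ± 424 FPKM in those of the parent (SD, n = 3 each).

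The 13 genes that kept 5 to 10% were mostly of moderate level, with a median parent mean of 197 FPKM. POX_b03096 was far more abundant than the rest, with 141, 115 and 146 FPKM in the mutant, against 1358, 1583 and 2327 FPKM in the parent. The largest share remained in POX_b02915, at 8.94%, with 30.9, 27.6 and 26.6 FPKM in mutant libraries and 309, 355 and 286 FPKM in those of the parent. POX_e06212 had 17.3, 15.7 and 14.3 FPKM in the mutant, against 133, 118 and 300 FPKM in the parent. Parent replicate 3 was more than 2 times as high as either other parent library in this gene. POX_b02411 had 15.7, 12.5 and 12.5 FPKM in mutant libraries and 160, 115 and 201 FPKM in those of the parent. POX_g08790 had 15.2, 17.5 and 19.7 FPKM in the mutant, against 236, 173 and 222 FPKM in the parent. In these 5 genes the highest mutant library was between 8.31 and 9.88% of the parent mean.

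The choice of 10% and 100 FPKM cut through a continuous range. Closest outside on the share was POX_b02842, with 25.02, 26.13 and 31.34 FPKM in mutant libraries and 253, 238 and 403 FPKM in those of the parent, its highest mutant library being at 10.5% of the parent mean. POX_a01292, POX_b02158, POX_f08248, POX_a00613 and POX_u09927 followed at 10.8 to 11.3%. POX_a00613 was by far the most abundant of these, with 473, 260 and 181 FPKM in the mutant, against 3855, 4438 and 4368 FPKM in the parent. On the level, POX_a00095 missed the limit with 2.27, 1.59 and 1.68 FPKM in mutant libraries and 118, 78.0 and 104 FPKM in those of the parent, a mean of 99.8 FPKM. POX_d04914, POX_h09893, POX_a00610, POX_f08058 and POX_c04399 had parent means of 91.4 to 95.5 FPKM and mutant means of 1.35 to 8.79 FPKM.

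The 55 genes varied between the parent libraries, and mostly in the same way. Parent replicate 2 was the lowest parent library for 37 of the 55 (67.3%), compared with 23.4% of the other 1596 genes with a parent mean of at least 100 FPKM. Parent replicate 3 was the highest for 36 of them (65.5%), compared with 38.5% of the others. The median of log2(library / parent mean) over the 55 was -0.00067, -0.27 and 0.21 in parent replicates 1 to 3, and -0.060, 0.045 and 0.0017 over the others. POX_a00954 and POX_c03583 were likewise lowest in parent replicate 2 and highest in parent replicate 3. Whether levels of the 55 follow those of POX_a00954 or POX_c03583 was not tested. The full order of replicate 3 above 1 above 2 was found in 29 of the 55 (52.7%) and in 16.2% of the others. Single parent libraries entered the choice of genes through their mean, so a high replicate 3 helped a gene to be chosen. Without parent replicate 3, POX_b02411, POX_d04874, POX_e06212 and POX_h09683 would not have met the thresholds. Of the other 51 genes, a restriction made after seeing the data, 34 (66.7%) were lowest in parent replicate 2 and 32 (62.7%) highest in parent replicate 3. The difference between these shares and those of the other genes was not tested.

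Several genes showed this pattern with large differences between parent libraries. POX_h09768, on chromosome VIII, had 8.62, 7.89 and 10.2 FPKM in the mutant, against 524, 283 and 621 FPKM in the parent. POX_g08575 had 23.6, 20.2 and 24.0 FPKM in mutant libraries and 628, 398 and 935 FPKM in those of the parent. A like spread was not seen in the mutant for these genes. The coefficient of variation (SD over mean) reached 0.5 in the parent for 5 genes, POX_e06898, POX_h09683, POX_d04874, POX_e06212 and POX_b01993. All were highest in parent replicate 3, which the choice of genes fixes for POX_h09683, POX_d04874 and POX_e06212, since they met the thresholds only through that library. POX_e06898 had the widest range, with 10.7, 4.54 and 6.04 FPKM in the mutant, against 130, 280 and 527 FPKM in the parent. At the other end, POX_a01056 had 13.5, 12.1 and 15.8 FPKM in mutant libraries and 198, 213 and 205 FPKM in those of the parent. These genes were singled out after their values were seen.

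The median coefficient of variation of the 55 genes was 0.228 in the mutant and 0.216 in the parent, and that of the 1596 others was 0.129 in the mutant and 0.112 in the parent. Without parent replicate 2 the parent values were 0.125 for the 55 and 0.0805 for the others, a drop by more than 1.5 times for the 55. They were 0.255 and 0.109 without parent replicate 1, and 0.170 and 0.0842 without parent replicate 3. Since replicate 2 was already the lowest for most of the 55, its omission is no separate sign of a pattern in them. In the mutant the libraries ranked much as they did for other genes. Mutant replicate 2 was the lowest mutant library for 30 of the 55 (54.5%) and for 49.5% of the others, and mutant replicate 3, in which POX_a00954 was highest, was the highest for 24 (43.6%) and for 46.6% of the others. Low levels make the mutant spread less precise for the 55, whose median mutant mean was 7.97 FPKM. The others were chosen on parent level only, so the mutant values of both sets come from unlike mutant levels. No comparison at like mutant levels was made.

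**Figure D3:**
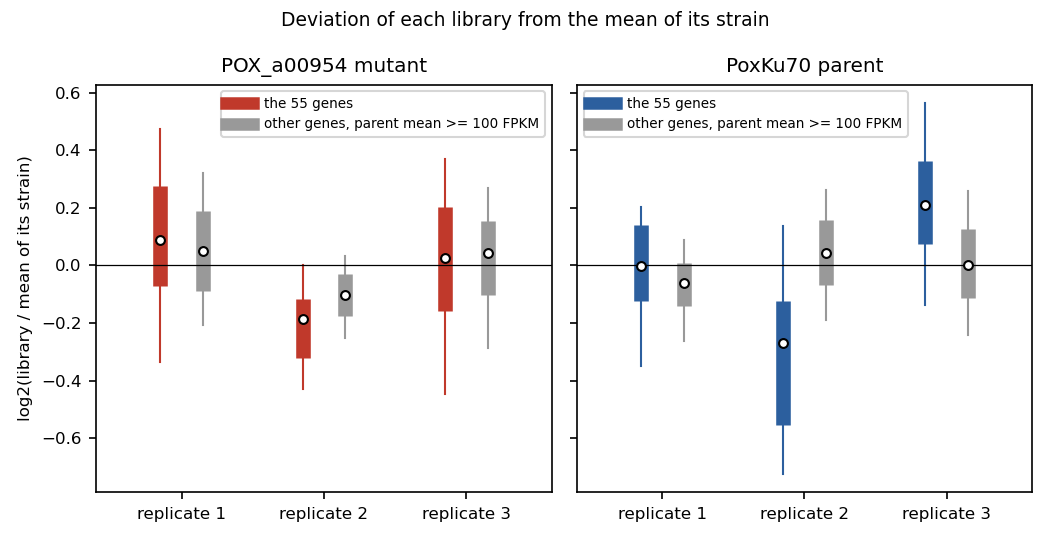
log2 of a library's FPKM over the mean of its strain, for the 55 genes (red or blue) and the other genes with a parent mean of at least 100 FPKM (grey), with the POX_a00954 mutant on the left and the PoxKu70 parent on the right. Circles are medians over genes, thick bars the middle 50% and thin lines the 10th to 90th percentiles; the 55 genes sit at a median of -0.27 in parent replicate 2, where the others sit at 0.045.

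The 55 genes lay on all 8 chromosomes, by the chromosomes that the reference table gives to their locus tags. Chromosome II held 14 and chromosome IV 10, which was 5.02% and 4.81% of their genes with a parent mean of at least 100 FPKM. Shares on the others ran from 1.96% on chromosome VII to 3.95% on chromosome VIII. All these shares depend on the ranges left out, which lay on chromosomes I, III and VI besides the ends. Genes left out are missing from the 55 but remain in the totals of abundant genes. Several that met both thresholds had ID letter c, as had the chosen genes of chromosome III. The order of the chromosomes therefore rests on what was left out. The next locus tag was also one of the 55 for 10 genes, which form 5 pairs, and 18 genes had another within 20 locus tags.

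Members of a pair did not keep equal shares. POX_h09767 had 2.31, 3.05 and 5.58 FPKM in the mutant, against 417, 243 and 475 FPKM in the parent, next to the values of POX_h09768 above. Its level per length was 0.268, 0.387 and 0.546 of that of POX_h09768 in the mutant libraries and 0.795, 0.859 and 0.765 of it in the parent libraries. Both genes thus had the same order of parent libraries, and POX_h09767 kept the smaller share in the mutant. POX_c04184, beside POX_c04185, had 2.16, 1.21 and 1.41 FPKM in mutant libraries and 387, 224 and 427 FPKM in those of the parent. It stood at 0.158, 0.103 and 0.108 of the level of POX_c04185 in the mutant and at 0.260, 0.212 and 0.261 of it in the parent.

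The order within a pair was the opposite in the strains, in every library, for 2 of the 5 pairs. These were POX_b02747 with POX_b02748 and POX_d04883 with POX_d04884. In the mutant the order of POX_b02747 and POX_b02748 rests on values near or under 1 FPKM, and so on few reads. The order of POX_d04883 and POX_d04884 was narrow in mutant replicate 1, with a ratio of 1.03. By means the order was also opposite for POX_a01064 with POX_a01065. The ratio of POX_a01064 to POX_a01065 was 0.924, 0.940 and 1.02 in mutant libraries and 1.25 to 1.39 in those of the parent. POX_b02748 had 0.81, 1.27 and 0.52 FPKM in the mutant, against 140, 172 and 211 FPKM in the parent, so that POX_b02747 was the lower of both genes in every mutant library and the higher in every parent library. POX_d04883 had 3.63, 4.31 and 2.40 FPKM in mutant libraries and 667, 398 and 327 FPKM in those of the parent. Its neighbour POX_d04884 had 3.53, 2.16 and 1.91 FPKM in the mutant, against 1034, 841 and 1028 FPKM in the parent. The ratio of POX_d04883 to POX_d04884 was between 1.03 and 2.00 in the mutant libraries and between 0.318 and 0.645 in the parent libraries. Both genes were highest in parent replicate 1. POX_a01064 had 13.4, 11.4 and 14.2 FPKM in mutant libraries and 284, 298 and 205 FPKM in those of the parent. POX_a01065 had 14.5, 12.2 and 13.9 FPKM in the mutant, against 213, 214 and 165 FPKM in the parent, so this pair was lowest in parent replicate 3, unlike most of the 55. How reads of overlapping neighbours were counted was not given in the sources used here, and no strand-marking step appears in the library protocol, so reads shared by neighbours cannot be told apart.

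Most genes between close members differed far less between the strains. The 18 locus tags from POX_d04867 to POX_d04884 held 5 of the 55: POX_d04867, POX_d04874, POX_d04879, POX_d04883 and POX_d04884. Of the 13 genes between them, 5 were lower past the threshold in limma (adjusted p of 0.05), 2 were higher, 5 did not pass and 1 was too low to test. POX_d04878 was the strongest fall of these, with 0.43, 0.52 and 0.89 FPKM in mutant libraries and 14.7, 7.17 and 18.4 FPKM in those of the parent (limma, log2 change -3.08, SE 0.33, adjusted p = 0.00012). POX_d04874 had 5.35, 6.28 and 8.97 FPKM in the mutant, against 96.8, 76.2 and 223 FPKM in the parent. POX_d04879 had 4.72, 5.71 and 7.90 FPKM in mutant libraries and 181, 152 and 338 FPKM in those of the parent. These 2 genes, 5 locus tags apart, ordered the libraries of each strain alike.

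The 10 locus tags from POX_a01056 to POX_a01065 held 3 of the 55, and 3 of the 7 genes between them were lower. Of the others between them, 1 was higher and 3 did not pass. The strongest fall was in POX_a01063, with 1.41, 0.74 and 1.82 FPKM in mutant libraries and 56.3, 44.8 and 29.9 FPKM in those of the parent. Its log2 change of -4.25 (limma, SE 0.27, adjusted p = 7.8e-06) was at least as large as those of the 3 chosen genes (-3.81, -4.22 and -3.76). Its parent mean of 43.7 FPKM was too low for it to be chosen. POX_a01059 came close to the chosen range, with 12.6, 10.3 and 18.2 FPKM in the mutant, against 103, 88.8 and 166 FPKM in the parent (limma, log2 change -3.01, SE 0.27, adjusted p = 5.0e-05). Between POX_d05953 and POX_d05966, 3 genes were lower, 4 were higher and 4 did not pass. POX_d05953 had 23.3, 14.6 and 27.6 FPKM in mutant libraries and 615, 696 and 925 FPKM in those of the parent. POX_d05964, one of the most abundant genes of both strains, lies 2 locus tags from POX_d05966 and rose, with 11215, 10902 and 11505 FPKM in the mutant, against 6569, 6844 and 7150 FPKM in the parent (limma, log2 change 0.71, SE 0.13, adjusted p = 0.0017). POX_d05956 rose as well, with 111, 106 and 119 FPKM in mutant libraries and 28.4, 24.7 and 26.6 FPKM in those of the parent (limma, log2 change 2.03, SE 0.12, adjusted p = 5.3e-06). With every library scaled to the same FPKM sum, which shifts the median change of all genes by -0.36, both rises kept their direction and their side of the threshold.

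**Figure D4:**
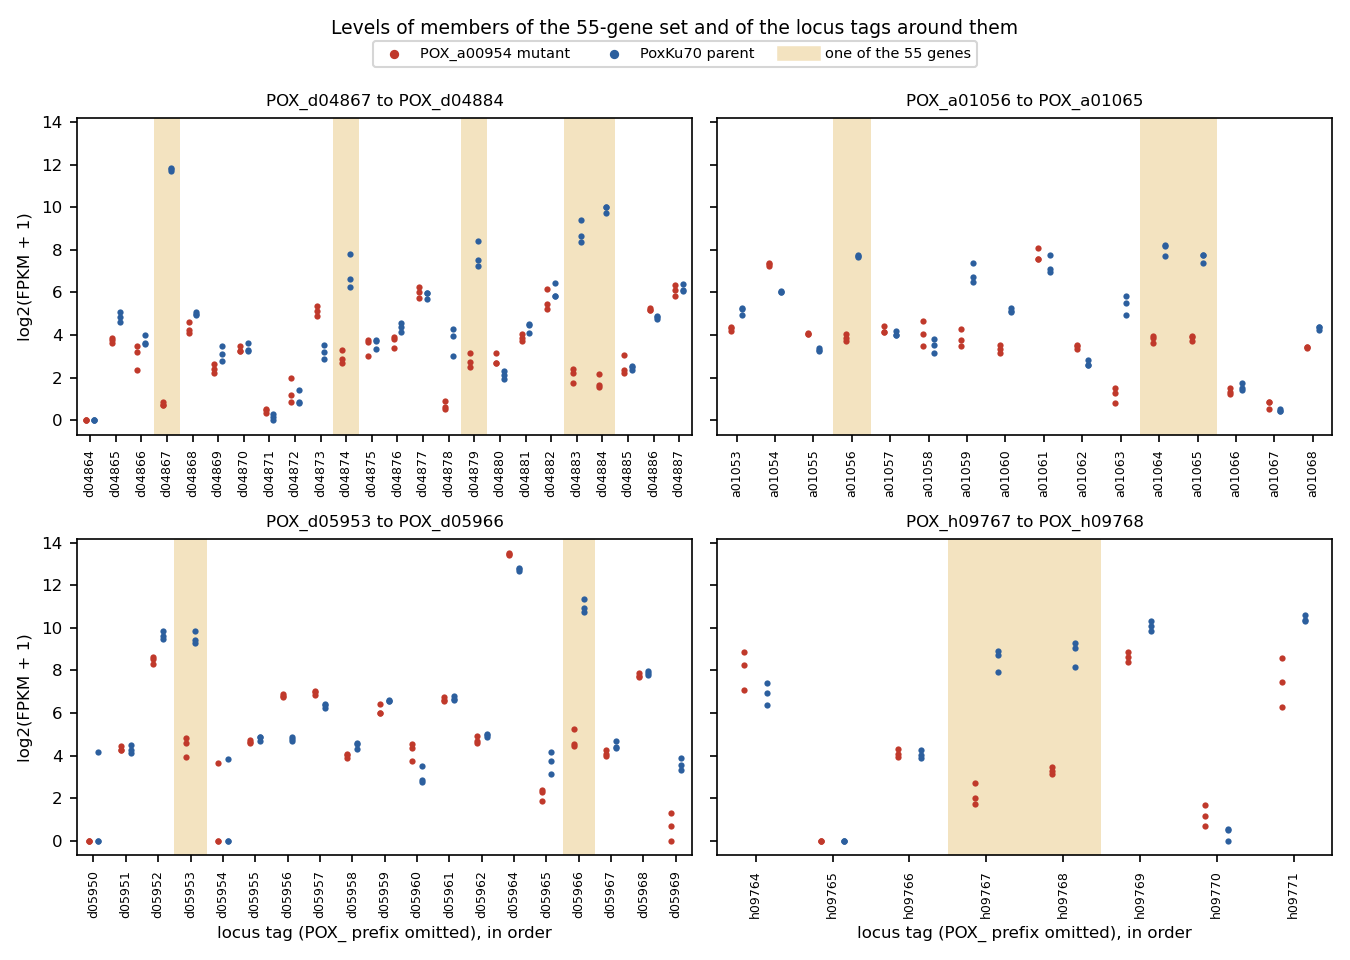
log2(FPKM + 1) of single libraries along 4 stretches of locus tags, with POX_a00954 mutant libraries in red on the left of each tag, PoxKu70 parent libraries in blue on the right, and the chosen genes shaded. Shaded genes show the wide gap by which they were chosen, and most genes between and beside them differ far less or are higher in the mutant.

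Beside POX_h09767 and POX_h09768, 2 abundant genes fell but kept larger shares. POX_h09769 had 463, 339 and 400.4 FPKM in the mutant, against 929, 1072 and 1294 FPKM in the parent (limma, log2 change -1.45, SE 0.17, adjusted p = 0.00023). POX_h09771 had 384, 173 and 77.0 FPKM in mutant libraries and 1282, 1542 and 1305 FPKM in those of the parent (limma, log2 change -2.98, SE 0.49, adjusted p = 0.0011). Parent replicate 2 was not the lowest library in POX_h09769 or POX_h09771, unlike in the pair beside them.

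Across all 55 genes, falls were more frequent than usual in the directly adjoining genes and rises less frequent. The locus tags directly beside the 55 numbered 109, of which 10 were themselves among the 55 and 8 were too low to test. Of the 91 others, 39 (42.9%) were lower in the mutant in limma with an adjusted p under 0.05, where 30% of all 8448 tested genes were lower. Only 18 (19.8%) were higher, where 30.5% of all tested genes were. Falls of at least 1 log2 unit made up 28.6% of the 91 and 14.1% of all tested genes. The median log2 change of the 91 was -0.40. At a distance of 2 locus tags 34.9% were lower and 26.7% higher, and at 3 locus tags 24 of 80 were lower and 24 higher. At 4 and 5 locus tags rises outnumbered falls, with 26 rises and 15 falls among 78 genes and 28 rises and 20 falls among 76. These counts are descriptions, since neighbours can share reads and the comparison of the shares was not tested. With every library scaled to the same FPKM sum, 54 of the 91 direct neighbours were lower and 10 higher. Of all 8448 tested genes, 3911 were then lower and 1655 higher, so falls were also more frequent among all genes.

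**Figure D5:**
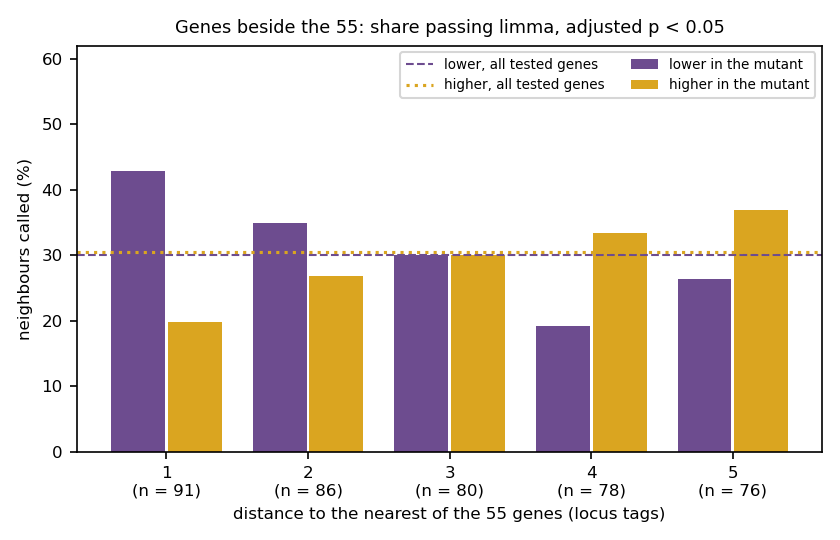
Percent of tested genes outside the 55 that were lower (purple) or higher (yellow) in the mutant in limma at an adjusted p under 0.05, by distance in locus tags to the nearest of the 55; n is the number of genes tested. The lines mark the shares over all 8448 tested genes, 30% lower and 30.5% higher, and directly adjoining genes were at 42.9% and 19.8%.

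The 5 largest falls among direct neighbours were in POX_f08058, POX_a00712, POX_a01063, POX_b02701 and POX_e06897. A neighbour with every mutant library under 10% of a parent mean of at least 100 FPKM would itself be one of the 55 unless left out by locus tag, so the choice of genes limits how abundant such neighbours can be in the parent. POX_f08058 had 0.73, 0.96 and 2.36 FPKM in the mutant, against 103, 83.5 and 89.7 FPKM in the parent (limma, log2 change -5.36, SE 0.25, adjusted p = 1.4e-06). It adjoins POX_f08057, with 1.19, 0.76 and 1.20 FPKM in mutant libraries and 409, 195 and 255 FPKM in those of the parent. POX_a00712 had 2.98, 1.18 and 2.95 FPKM in the mutant, against 74.2, 52.6 and 107 FPKM in the parent (limma, log2 change -4.54, SE 0.31, adjusted p = 1.2e-05). Its order over the parent libraries was that of POX_a00713, which had 3.97, 4.70 and 4.35 FPKM in mutant libraries and 584, 386 and 812 FPKM in those of the parent. The other large falls were in POX_a01063 (limma, log2 change -4.25, adjusted p = 7.8e-06), POX_b02701 (-3.30, adjusted p = 1.1e-05) and POX_e06897 (-3.29, adjusted p = 0.00012). POX_e06897 had 11.1, 7.62 and 6.59 FPKM in the mutant, against 50.6, 102 and 138 FPKM in the parent, the same order of parent libraries as POX_e06898 beside it.

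The 5 largest rises among direct neighbours stood beside 4 of the 55. POX_a00031 had 69.7, 53.8 and 45.2 FPKM in mutant libraries and 3.09, 5.05 and 1.93 FPKM in those of the parent (limma, log2 change 3.76, SE 0.28, adjusted p = 1.7e-05). POX_a00029, on the other side of POX_a00030, had 28.1, 31.5 and 52.3 FPKM in the mutant, against 7.97, 6.67 and 7.75 FPKM in the parent (limma, log2 change 2.13, SE 0.23, adjusted p = 0.00012). POX_a00030, at 1.93% of its parent mean, thus lay between 2 genes that rose. POX_b02749 had 515, 553 and 416 FPKM in mutant libraries and 119, 149 and 86.0 FPKM in those of the parent (limma, log2 change 2.08, SE 0.21, adjusted p = 9.6e-05), next to POX_b02748 with a mutant mean of 0.87 FPKM. POX_a01092 had 1108, 814 and 727 FPKM in the mutant, against 151, 274 and 229 FPKM in the parent (limma, log2 change 2.03, SE 0.25, adjusted p = 0.00024), beside POX_a01091. POX_d04873 rose by 1.93 log2 units (limma, adjusted p = 0.00011) beside POX_d04874.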

How the data were processed

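Poly(A) RNA of 6 mycelium samples was sequenced, 3 of a POX_a00954 mutant and 3 of PoxKu70. The submitters' processing notes name bcl2fastq and HISAT2, without versions; which program counted fragments, on which build and gene models, was not given in the sources used here. Each library has a file in which the authors deposited FPKM values per gene, per the file headers. FPKM is relative to the total of its own library, so a very abundant gene lowers all others.

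Samples were grouped by their titles. The 55 genes and all lists were chosen with earlier results of these data known, and the genes given library by library followed a rule on parent level, remaining share, adjacency and closeness to the thresholds. Neighbours were the next locus tags; 9718 of the 9822 IDs, and all 55 genes, are in the RefSeq table of assembly ASM172317v3, used for chromosomes only. No coordinates or sequences are given.

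log2(FPKM + 1) was fitted with limma 3.58.1 in R 4.3.3 (lmFit, eBayes with trend, two-sided, genotype as the only term) for the 8448 genes averaging at least 1 FPKM over the 6 libraries, with Benjamini-Hochberg adjustment over all of them and a threshold of 0.05. The script was tested on simulated data. A fold change on this scale understates changes of low genes. The files hold no counts, so no count model or counting interval was used. Relative depth came from the commonest ratio of low values between libraries. Python 3.11.15, pandas 2.3.3 and matplotlib 3.10.9 were used. Alternatives were other pseudocounts, filters, scalings, variance settings, thresholds and distances, a replicate block, and fits without each library in turn.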

Additional observations from a re-analysis of the deposited data

How the results depend on the processing

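The limma changes of the 18 single genes tested and named kept their direction and their side of the threshold in all 16 alternative fits. The number of chosen genes was 71 with every library at the same FPKM sum (TPM scaling), 55 with median-ratio scaling, 51 to 63 with any 1 library omitted (51 without parent replicate 3), 36 with a share under 5% and 91 with a share under 20%. The summed level in the mutant was 1.33% of the parent's under TPM scaling and 1.61 to 1.84% with any 1 library omitted. The median remaining share was 1.76% under TPM scaling and 1.97 to 2.71% with any 1 library omitted. Direct neighbours lower in the mutant numbered 34 to 42 with any 1 library omitted and 54 under TPM scaling, where 46.3% of all tested genes were lower; those higher numbered 13 to 17, and 10 under TPM scaling. Within 2 locus tags 69 were lower and 41 higher, and within 5 they were 128 and 119, by construction of those settings. All genes called split into 2532 lower and 2575 higher, and into 3911 and 1655 under TPM scaling. Parent replicate 2 was the lowest parent library for 39 of the 55 genes under TPM scaling (31.4% of the others) and 37 under median-ratio scaling (19.1%), both chosen after seeing the data. Whether equal replicate numbers mark paired libraries cannot be decided here, since weak correlations do not exclude a shared batch. Deviations from the strain means had r of -0.064, -0.0029 and 0.15 between equal numbers. For 2 of the 6 libraries the closest one of the other strain had its own number. A replicate block in the fit gave 40 lower and 16 higher neighbours. The median coefficient of variation ran from 0.157 to 0.228 in the mutant and from 0.125 to 0.255 in the parent with any 1 library omitted.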
